A study of Mus musculus with 4 samples.

Results

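The 9 genes described here encode the parts of the pre-B cell receptor and of the V(D)J recombination machinery that mouse B cell progenitors use. Vpreb1, Vpreb2 and Igll1 make the surrogate light chain, Vpreb3 is a related protein of receptor assembly, and Cd79a and Cd79b are the signalling chains. Rag1 and Rag2 cut the DNA, and Dntt adds bases at the joints. They were followed by symbol among the 21889 genes listed for 4 mouse leukaemia cell lines. All 9 were listed in all 4 libraries. The group was chosen by its FPKM values in these same libraries and by function, so its levels and changes are given as descriptions without a test.

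All 4 lines are acute myeloid leukaemia lines from BXH-2 mice, which are prone to myeloid leukaemia caused by a retrovirus. B117H is highly resistant to Ara-C (cytarabine, a nucleoside drug that stops DNA replication), with a labelled IC50 of about 160 µg/ml, and was derived from B117P, which is sensitive at about 150 ng/ml. B140H is highly resistant at about 60 µg/ml and was derived from B140P, which is sensitive at about 110 ng/ml. Each resistant line with its parent is called a lineage. The labels give rising Ara-C concentrations as the treatment and passage without Ara-C for every line, with total RNA as the material. Each line is 1 derivation and gave 1 library, so there is no spread between replicates. A difference below is described by its size, and its 95% interval covers counting error only.

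In normal development the pre-B receptor forms when a rearranged immunoglobulin heavy chain pairs with the surrogate light chain, before any light chain gene has been rearranged. CD79A and CD79B carry its signal into the cell. RAG1 and RAG2 act together as a recombinase and their genes are neighbours, as are Igll1 and Vpreb1 in the mouse. Terminal transferase, the product of Dntt, is a classical marker of lymphoid progenitors and is also found in some myeloid leukaemias.

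FPKM, the deposited unit, counts fragments per kilobase of transcript, scaled to the number of mapped fragments in the library. Spacing of low FPKM values gave estimates of 20.1 M fragments for B117H, 23 M for B117P, 25.3 M for B140H and 19.5 M for B140P. Between 80% and 87.6% of the low values lay within 0.15 of a whole fragment in each library, where the unit had been set from the same values. A pseudocount of 1 was added to FPKM before log2 ratios were taken, which understates the change of low genes. A gene rose or fell when this ratio passed 2-fold, among 10066 expressed genes, those whose FPKM averaged at least 1 in the 4 libraries. Of the 9 genes, 8 reached that mean. Vpreb3 did not, and Vpreb2, Igll1, Rag1 and Cd79a reached it through the B140 lines. Cd79b reached it mainly through those lines. Listed coordinates of 6 genes differed between the lineages and of none within a lineage, so levels set side by side across the lineages carry the limit that the lineages may have been normalised separately.

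Vpreb1 and Vpreb2 are near-identical copies, which bears on every value of the pair. Their coding sequences have 429 bases each, differ at 9 of them and are 97.9% identical, with a longest identical run of 196 bases. The 75 bases that hold the most differences, 5 in all, are coding bases 313 to 387 in GENCODE transcripts on GRCm38. They lie at chr16:16868638-16868712 on the minus strand for Vpreb1 and at chr16:17980964-17981038 on the plus strand for Vpreb2, and the capitals mark the differing bases.
Vpreb1: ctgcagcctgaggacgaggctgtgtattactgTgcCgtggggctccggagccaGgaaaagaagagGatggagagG
Vpreb2: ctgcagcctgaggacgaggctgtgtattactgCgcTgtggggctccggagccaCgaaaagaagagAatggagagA
Reads between such positions can be divided between the genes only by estimation, so a low Vpreb2 value beside a high Vpreb1 value is uncertain.

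The upstream sequences of 5 genes that passed 2-fold in a lineage are shown, among which Igll1 and Vpreb1, like Rag1 and Rag2, are neighbours. Cd79a also passed 2-fold, in B140H, and its sequence is not shown. Each run is the 250 bases before the RefSeq start on GRCm38.p6, written 5′ to 3′ on the strand of the gene. The windows are chr16:16869256-16869505 (minus strand) for Vpreb1, chr16:16863986-16864235 (minus strand) for Igll1, chr19:41029025-41029274 (plus strand) for Dntt, chr2:101649533-101649782 (minus strand) for Rag1 and chr2:101624462-101624711 (plus strand) for Rag2. Capitals mark matches on either strand to 6 short motifs. The EBF core was searched as CCCNNGGG. The E boxes were searched as CAGGTG for the first and as CAGCTG for the other. The RUNX motif was searched as TGTGGT, the octamer as ATTTGCAT and the Ikaros core as TGGGAA.
Vpreb1: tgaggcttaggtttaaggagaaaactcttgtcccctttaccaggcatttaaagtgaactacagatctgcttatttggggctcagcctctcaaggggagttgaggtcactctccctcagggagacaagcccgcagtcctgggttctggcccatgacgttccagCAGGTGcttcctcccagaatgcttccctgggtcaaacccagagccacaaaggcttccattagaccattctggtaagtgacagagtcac
Igll1: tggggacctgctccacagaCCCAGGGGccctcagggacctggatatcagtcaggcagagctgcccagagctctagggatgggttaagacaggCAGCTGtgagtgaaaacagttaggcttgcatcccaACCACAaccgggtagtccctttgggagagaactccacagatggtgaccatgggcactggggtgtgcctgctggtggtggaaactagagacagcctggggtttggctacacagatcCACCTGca
Dntt: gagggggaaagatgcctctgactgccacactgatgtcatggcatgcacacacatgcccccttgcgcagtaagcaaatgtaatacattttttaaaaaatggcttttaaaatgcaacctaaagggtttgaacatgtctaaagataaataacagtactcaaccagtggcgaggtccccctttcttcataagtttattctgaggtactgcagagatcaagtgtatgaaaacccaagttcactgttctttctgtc
Rag1: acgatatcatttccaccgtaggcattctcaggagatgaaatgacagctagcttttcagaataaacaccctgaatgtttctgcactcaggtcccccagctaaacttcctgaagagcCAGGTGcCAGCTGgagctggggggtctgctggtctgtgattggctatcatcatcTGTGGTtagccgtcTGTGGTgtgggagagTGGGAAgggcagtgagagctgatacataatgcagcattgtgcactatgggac
Rag2: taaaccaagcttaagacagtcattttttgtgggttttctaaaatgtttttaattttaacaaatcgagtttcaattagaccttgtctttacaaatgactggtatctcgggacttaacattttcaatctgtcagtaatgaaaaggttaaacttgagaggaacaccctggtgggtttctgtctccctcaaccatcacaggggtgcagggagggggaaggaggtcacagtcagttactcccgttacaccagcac
The Vpreb1 window held the first E box and no other match, as did the Cd79a window. The Igll1 window held 1 match each to the EBF core, both E boxes and the RUNX motif. The Rag1 window held both E boxes, 2 RUNX matches and 1 Ikaros match, and no motif overlapped another in these windows. No match was found in the Dntt and Rag2 windows. The listed Rag2 span of 71748 bases is far longer than the 7812 bases of the closest reference transcript. The Rag2 window therefore need not lie before the listed start. Among 32851 RefSeq windows of the same length, 11.8% held the EBF core, 17.2% the first E box, 13.0% the other E box, 14.0% the RUNX motif, 1.60% the octamer and 21.6% the Ikaros core. A match is a run of letters and was not tested as a binding site. RefSeq windows were found for 8 of the 9 genes, and the exception is Cd79b.

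The surrogate light chain gene Vpreb1 (chr16:16868494-16869348 in mm9) moved in opposite directions in the lineages. It was at 81.3 FPKM in B117H, against 8.32 FPKM in B117P, and at 14.1 FPKM in B140H, against 54.8 FPKM in B140P. B117H and B140P were the high libraries. In bulk RNA, fewer cells that express a gene and less RNA of it per cell cannot be told apart. Vpreb1 rose in B117H, with a log2 ratio of 3.14 (95% counting interval 2.89 to 3.39), and fell in B140H, with a log2 ratio of -1.88 (-2.09 to -1.67). In B117H it ranked 874 among the 21889 listed genes, against rank 6372 in B117P.

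Igll1, which encodes lambda 5, the other chain of the surrogate light chain, lies 4.42 kb from Vpreb1 at chr16:16860764-16864078 in mm9. It was at 1.11 FPKM in B117H, against 0.118 FPKM in B117P. Those values correspond to about 17 fragments in B117H and 2 in B117P. In the other lineage it was at 9.59 FPKM in B140H, against 38.0 FPKM in B140P. The B140 lines stood above both B117 lines, with B140P highest. Igll1 fell in B140H with a log2 ratio of -1.88 (-2.11 to -1.65). In B117H its log2 ratio of 0.92 did not pass the 2-fold rule at a pseudocount of 1. The plain FPKM ratio there was 9.46, with a counting interval of 2.25 to 84.5.

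The ratio of these neighbours was similar within a lineage and differed widely between lineages. The plain ratio of Vpreb1 to Igll1 FPKM was 73.1 in B117H and 70.8 in B117P, and it was 1.47 in B140H and 1.44 in B140P. In B117H the FPKM of Vpreb1 was 9.77-fold and that of Igll1 9.46-fold that in B117P. In B140H Vpreb1 was at 25.7% and Igll1 at 25.2% of the FPKM in B140P. The Igll1 value in B117P, and with it the Vpreb1 to Igll1 ratio of 70.8, rests on about 2 fragments.

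Vpreb2 (chr16:17980658-17981173 in mm9), the near copy, was at 0.160 FPKM in B117H and listed at 0 in B117P, about 1 fragment in B117H and 0 in B117P. It was at 1.92 FPKM in B140H, against 3.26 FPKM in B140P. The log2 ratio in B140H was -0.55, and its counting interval of -1.28 to 0.22 held 0. In B117H, where Vpreb1 was highest, Vpreb1 stood 507-fold above Vpreb2 in FPKM, against 7.36-fold in B140H and 16.8-fold in B140P. Vpreb3 (chr10:75411057-75412391 in mm9), whose product associates with the receptor chains during assembly, was listed at 0 in B117H and B117P, where 3 fragments would be 0.290 FPKM in B117H and 0.264 FPKM in B117P. It was at 0.979 FPKM in B140H and 0.540 FPKM in B140P, about 12 fragments in B140H and 5 in B140P, and the counting interval of that difference held equality.

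**Figure D1:**
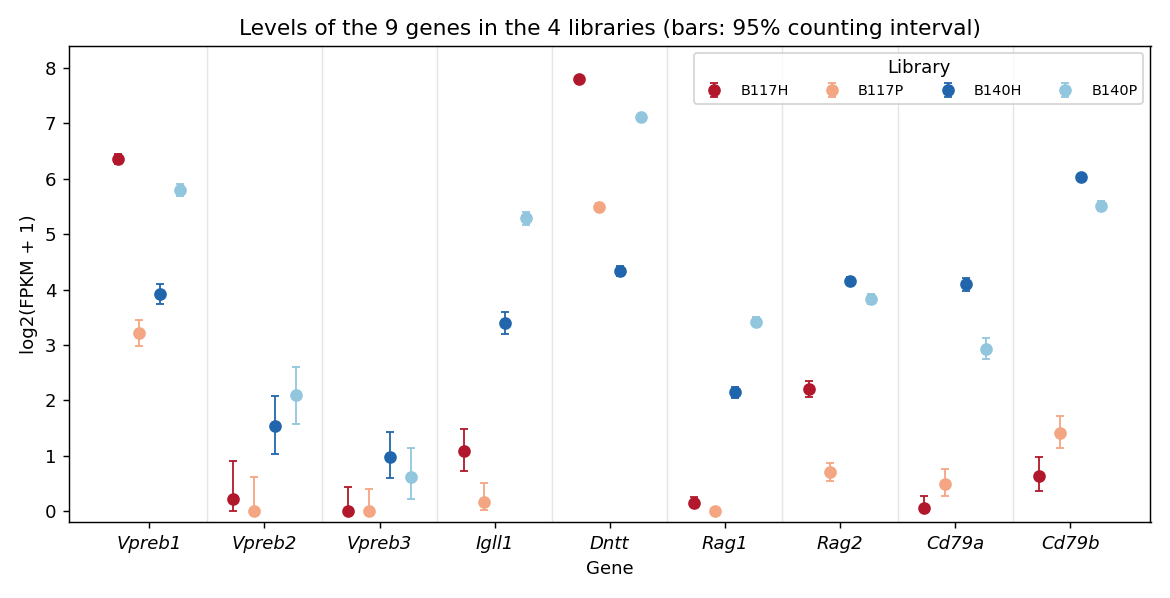
Levels of the 9 genes as log2(FPKM + 1), with the libraries B117H, B117P, B140H and B140P from left to right within each gene and bars for the 95% counting interval. Vpreb1 and Dntt are highest in B117H, while Igll1, Rag1, Rag2, Cd79a and Cd79b are higher in the B140 libraries than in either B117 library.

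Dntt (chr19:41103765-41134015 in mm9), the terminal transferase gene, was the most abundant of the 9 genes in every library except B140H. It was at 222 FPKM in B117H, against 44.2 FPKM in B117P, and at 19.2 FPKM in B140H, against 137 FPKM in B140P. As for Vpreb1, B117H was highest and B140P next. Dntt rose in B117H with a log2 ratio of 2.30 (2.23 to 2.37) and fell in B140H with a log2 ratio of -2.78 (-2.88 to -2.69). These values rest on about 9010 fragments in B117H, 2035 in B117P, 964 in B140H and 5359 in B140P. In B140H the most abundant of the 9 genes was Cd79b.

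Rag1 (chr2:101478411-101489689 in mm9), the catalytic subunit of the recombinase, was nearly absent from lineage B117. It was at 0.112 FPKM in B117H and 0.00665 FPKM in B117P, about 15 fragments in B117H and 1 in B117P. The plain ratio of those values was 16.8 with a counting interval of 2.63 to 720, and the log2 ratio at a pseudocount of 1 was 0.14. Rag1 was at 3.42 FPKM in B140H, against 9.73 FPKM in B140P, and fell with a log2 ratio of -1.28 (-1.40 to -1.16).

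Rag2 (chr2:101400938-101472685 in mm9), its partner subunit, was higher in the resistant line in both lineages, as Rag1 was in lineage B117 but not in lineage B140. Rag2 was at 3.63 FPKM in B117H, against 0.626 FPKM in B117P, and at 16.8 FPKM in B140H, against 13.2 FPKM in B140P. Both B140 libraries were above both B117 libraries. Rag2 rose in B117H with a log2 ratio of 1.51 (1.30 to 1.71) and had a log2 ratio of 0.32 (0.21 to 0.44) in B140H. Rag1 was thus at 0.203 of the Rag2 FPKM in B140H, against 0.735 in B140P. The listed Rag2 span of 71748 bases overlaps the listed gene B230118H07Rik, so its fragments may be shared. Rag2 intervals were computed with a reference transcript of 3424 bases that spans only 7812 bases. That gene was at 7.01 FPKM in B117H and 8.98 FPKM in B117P, and at 1.16 FPKM in B140H and 1.08 FPKM in B140P, and passed the rule in neither lineage. The listed spans of the other 8 genes overlap no listed gene.

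Cd79a (chr7:25682530-25687216 in mm9), the Ig-alpha chain, was at 0.0406 FPKM in B117H, against 0.400 FPKM in B117P, about 1 fragment in B117H and 12 in B117P. It was at 16.1 FPKM in B140H, against 6.63 FPKM in B140P. Cd79a rose in B140H with a log2 ratio of 1.16, and its counting interval of 0.94 to 1.39 reached below the 2-fold line. The plain ratio was 2.43 (2.03 to 2.89). Cd79b (chr11:106172655-106175843 in mm9), the Ig-beta chain, was at 0.546 FPKM in B117H, against 1.67 FPKM in B117P, about 12 fragments in B117H and 41 in B117P, and at 64.2 FPKM in B140H, against 44.5 FPKM in B140P. Its log2 ratios were -0.79 in B117H and 0.52 in B140H, neither past 2-fold. Both chains were lower in B117H than in B117P and higher in B140H than in B140P beyond counting error.

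**Figure D2:**
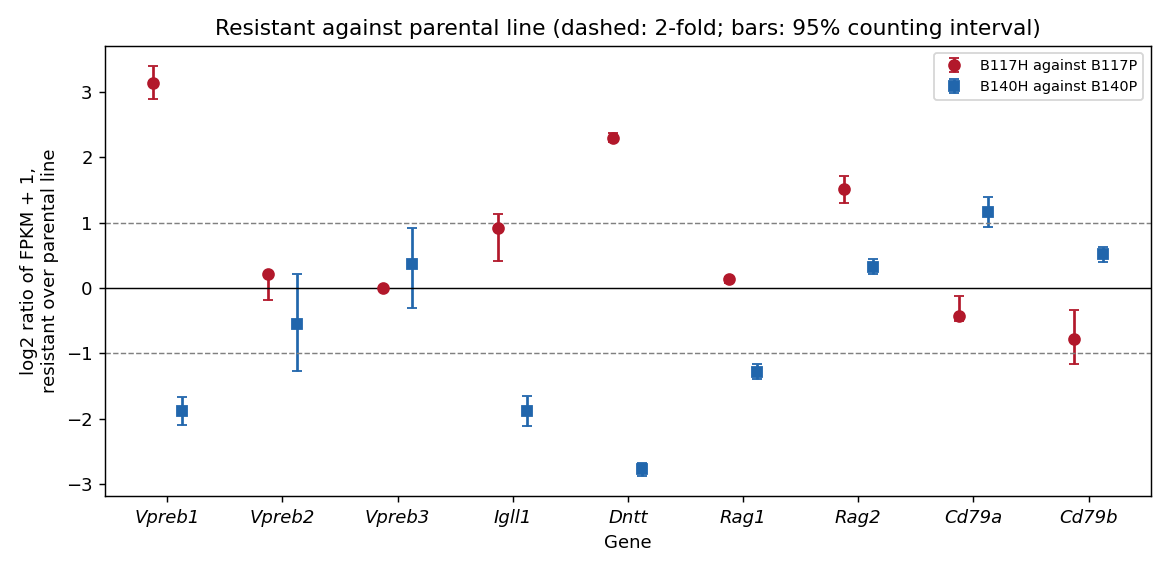
Log2 ratio of FPKM + 1 of each resistant line over its parent, for lineage B117 (circles) and lineage B140 (squares), with 95% counting intervals and dashed lines at 2-fold. Vpreb1 and Dntt lie above the upper line in lineage B117 and below the lower line in lineage B140, and only Cd79a lies above the upper line in lineage B140.

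Counted over the 8 genes that reached the mean level, Vpreb1, Dntt and Rag2 rose in B117H, none fell and 5 did not pass the rule. Among all expressed genes, 1.41% rose and 3.21% fell in that comparison, 4.62% in either direction. In B140H, Cd79a rose, Vpreb1, Igll1, Dntt and Rag1 fell, and 3 did not pass. The background there was 2.31% higher and 1.63% lower, 3.94% in either direction. The median log2 ratio over the 8 genes was 0.57 in B117H, against -0.03 over all expressed genes, and -0.91 in B140H, against 0.11 over all expressed genes. Since these comparisons helped to choose the genes, nothing is read from the counts.

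Of all 10066 expressed genes, 10 rose in B117H and fell in B140H. Vpreb1 and Dntt were among them. The others were Angpt1, Camk1d, Dqx1, Epha2, Krt80, Ppfibp1, St3gal6 and Xrcc5, named after their values were seen. The opposite pattern, a fall in B117H with a rise in B140H, was found in 39 genes and in none of the 9. No gene of the 9 rose in both resistant lines or fell in both, against 12 and 11 of the expressed genes.

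**Figure D3:**
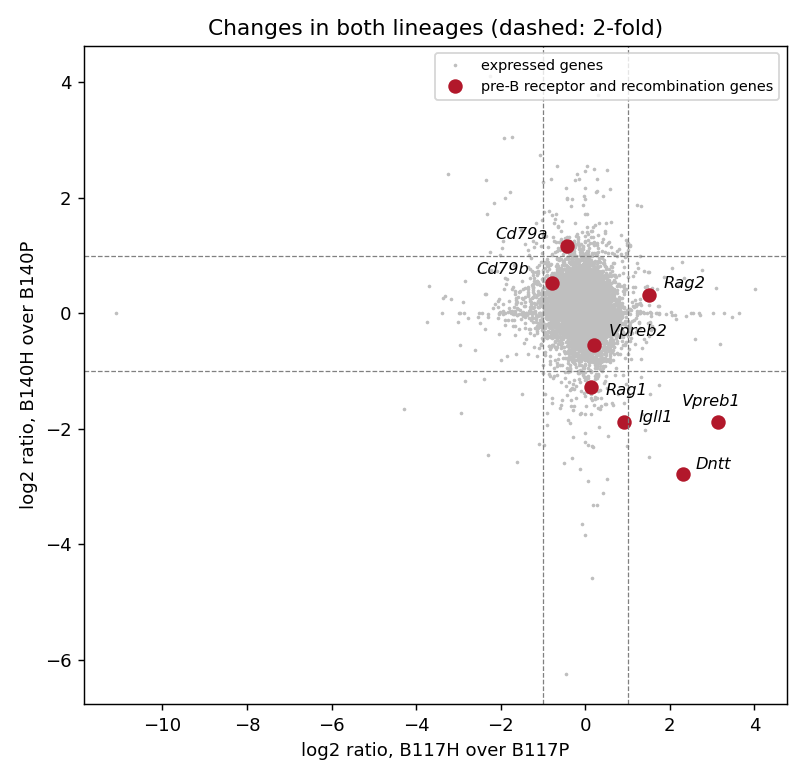
Log2 ratio of B117H over B117P (x axis) against log2 ratio of B140H over B140P (y axis) for expressed genes (grey, small RNA genes left out) and the 8 expressed genes described here (red), with dashed lines at 2-fold. Vpreb1 and Dntt lie in the lower right corner, at 3.14 and -1.88 and at 2.30 and -2.78.

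Between the lineages most of the genes were lower in lineage B117. Comparing B117P with B140P, 8 of 8 were lower in B117P, where 5.83% of all expressed genes were lower, 10.8% higher and 16.6% either. The log2 ratios of B117P over B140P ran between -5.13 for Igll1 and -1.61 for Dntt. Comparing B117H with B140H, Vpreb1 and Dntt were higher in B117H and 6 were lower. The background was 9.19% higher and 9.69% lower, 18.9% in either direction. The log2 ratio was 3.47 for Dntt and 2.44 for Vpreb1, against -5.40 for Cd79b and -4.04 for Cd79a. The limit of possible separate normalisation holds for both comparisons. Vpreb2, Igll1, Rag1 and Cd79a also reached the mean level through the B140 lines, and Cd79b mainly so. Their lower B117 values therefore follow in part from that filter. The genes were chosen with these values known, and nothing is read from these counts either.

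In order of level across the libraries, Vpreb1 and Dntt shared the first places, B117H and then B140P. For Vpreb1 B140H and B117P followed, and for Dntt B117P and then B140H. Igll1 and Rag1 ran B140P, B140H, B117H, B117P. Cd79a and Cd79b ran B140H, B140P, B117P, B117H, and Rag2 ran B140H, B140P, B117H, B117P. For these 7 genes the counting interval of the ratio between neighbours in the order did not hold 1 at any step. For Vpreb2 it held 1 between B140P and B140H and between B117H and B117P. For Vpreb3 it held 1 at both steps that gave a ratio.

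By the distance between centred log2(FPKM + 1) profiles over the 4 libraries, the named genes most like each member were found among 9187 expressed genes. For Vpreb1 they were Camk1d, Ppfibp1 and Cav2, at distances of 1.17, 1.30 and 1.58. For Dntt they were Ppfibp1, Epha2 and Gnpda2, at 0.86, 1.30 and 1.31, and Dntt and Vpreb1 lay 1.32 apart. For Igll1 they were Hmga2, Bckdhb and Rgs8, at 0.69, 0.82 and 0.90. For Rag1 they were Cd33, which is on the list of myeloid defining genes below, Diras2 and Rgs8, at 0.30, 0.36 and 0.41. For Rag2 the closest were Prr5 at 0.13, Il7r, the interleukin 7 receptor chain of lymphoid progenitors, at 0.45, and Pcgf6 at 0.48. For Cd79b they were Tnk2, Tspan32 and Cd72, a B cell surface protein, at 0.33, 0.47 and 0.50. For Cd79a they were Ftl2, Cuedc1 and Bves at 0.35, 0.50 and 0.55, and for Vpreb2 Ppp2r2a, Ablim1 and Pdlim2 at 0.11, 0.17 and 0.18. With 4 points a profile is short, and a small distance is a description only.

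Genes around Vpreb1, Igll1 and Dntt were mostly within 2-fold. Chromosome 16 as a whole was lower in B117H, with a median log2 ratio of -0.47 over 323 expressed genes. The 20 expressed neighbours of Vpreb1 and Igll1, 10 on each side over 2.90 Mb and small RNA genes left out, had a median of -0.58 in B117H and none passed the rule. In B140H their median was 0.09, and 1 fell. Top3b, the next listed gene after Vpreb1, was at 32.9 FPKM in B117H and 41.5 FPKM in B117P, and at 31.2 FPKM in B140H and 31.9 FPKM in B140P.

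Around Dntt, the 20 expressed neighbours over 3.88 Mb had medians of 0.01 in B117H and -0.07 in B140H, with 1 rise and no fall in each. The rise in B117H was that of Blnk, 34.7 kb from Dntt, which encodes an adaptor protein of pre-B receptor signalling. Blnk was at 2.92 FPKM in B117H, against 0.442 FPKM in B117P, and at 0.181 FPKM in B140H, against 0.667 FPKM in B140P. Its log2 ratios were 1.44 in B117H and -0.50 in B140H. Farther out, between 2.4 and 5 Mb past Dntt, 20 of 29 expressed genes fell in B117H and none in B140H, a stretch picked after the values were seen. Near Rag1 and Rag2 the gene Traf6, at 9.89 FPKM in B117H and 8.13 FPKM in B117P and at 14.4 FPKM in B140H and 14.0 FPKM in B140P, passed the rule in neither lineage.

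**Figure D4:**
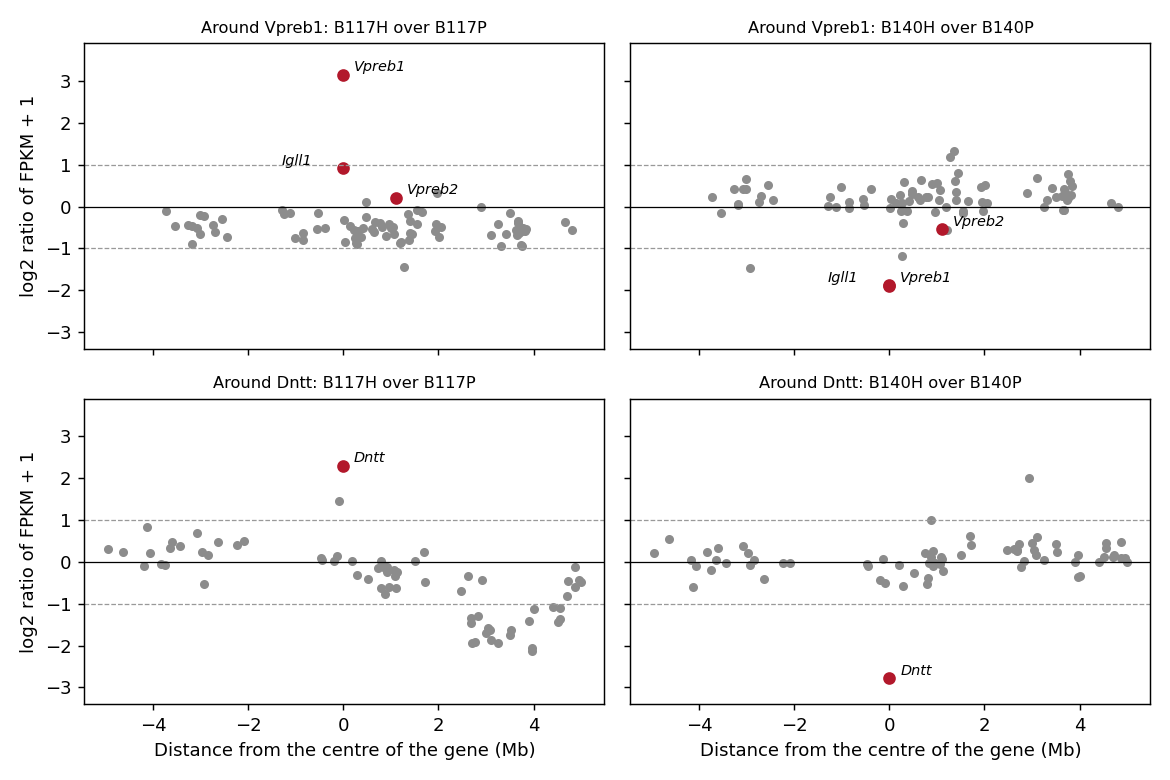
Log2 ratio of FPKM + 1 of expressed genes within 5 Mb of Vpreb1 (top) and of Dntt (bottom), small RNA genes left out, for B117H over B117P (left) and B140H over B140P (right). Vpreb1 at 3.14 stands above its 20 closest expressed neighbours, whose median was -0.58. Dntt at 2.30 and -2.78 stands apart from its 20 closest, with medians of 0.01 and -0.07. The panels also draw genes farther out, and between 2.4 and 5 Mb past Dntt 20 of 29 fell in B117H.

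The 3 expressed B lineage defining genes, Ebf1, Cd72 and Cd22, were lower in the B117 lines. Ebf1 and Cd22 counted as expressed through their B140 values, so for them this follows in part from the filter. Ebf1, an early B cell transcription factor, was at 0.0230 FPKM in B117H and listed at 0 in B117P, while it was at 23.7 FPKM in B140H and 24.7 FPKM in B140P. Pax5, the factor of B cell commitment, was listed at 0 in both B117 lines and was at 0.186 FPKM in B140H and 0.704 FPKM in B140P. Cd72 was at 2.31 FPKM in B117H and 3.51 FPKM in B117P, and at 149 FPKM in B140H and 124 FPKM in B140P. Of the 10 B lineage defining genes listed, 1 reached 1 FPKM in each B117 library and 3 in each B140 library. Their summed FPKM was 3.13 in B117H and 3.81 in B117P, against 183 in B140H and 151 in B140P. Ms4a1, the CD20 gene, was listed at 0 in B140H and B140P. In B140H 1 of the 3 expressed members of this list rose and none fell. That was Cd22, an inhibitory receptor of B cells, at 10.02 FPKM in B140H, against 1.69 FPKM in B140P. In B117H none of the 3 passed the rule. The shares of all expressed genes were 1.41% higher and 3.21% lower in B117H, and 2.31% higher and 1.63% lower in B140H. Ighm and Igkc were not analysed here.

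**Figure D5:**
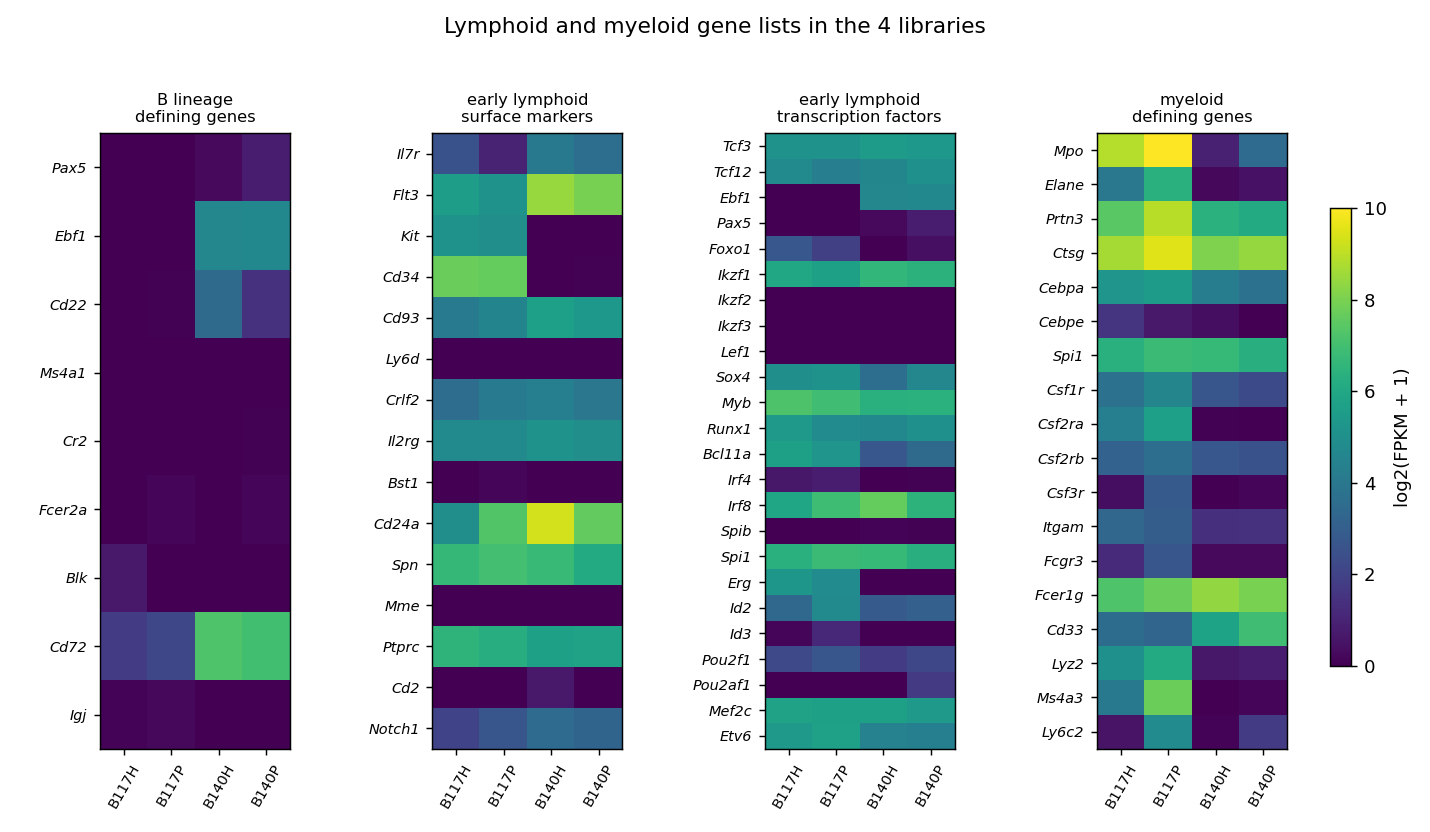
Heat map of log2(FPKM + 1) for members of the B lineage defining genes, early lymphoid surface markers, early lymphoid transcription factors and myeloid defining genes (rows) in the libraries B117H, B117P, B140H and B140P (columns). Ebf1 and Cd72 are high in the B140 lines, and Kit and Cd34 in the B117 lines.

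The myeloid defining genes differed in level between the lineages, and not all in the same direction. The 18 myeloid defining genes summed to 1442 FPKM in B117H and 3544 FPKM in B117P, with 16 of them in B117H and 17 in B117P at 1 FPKM or more. They summed to 879 FPKM in B140H and 894 FPKM in B140P, with 9 in B140H and 11 in B140P at 1 FPKM or more. Some members were higher in the B140 lines. Cd33 was at 54.8 FPKM in B140H and 120 FPKM in B140P, against 10.6 FPKM in B117H and 8.58 FPKM in B117P. Fcer1g was at 335 FPKM in B140H and 255 FPKM in B140P, against 152 FPKM in B117H and 211 FPKM in B117P. Both were picked here after their values were seen. In B117H 9 of the 17 expressed members fell and none rose, and their median log2 ratio was -1.11. Ly6c2, Ms4a3 and Csf3r fell with log2 ratios of -4.30, -3.74 and -2.48. Mpo, the myeloperoxidase gene, was at 473 FPKM in B117H, against 1450 FPKM in B117P. In B140H 3 fell, none rose and the median was -0.07, against 0.11 over all expressed genes, of which 1.63% fell and 2.31% rose. Mpo was at 0.913 FPKM in B140H, against 10.4 FPKM in B140P. Some myeloid genes thus fell in B117H, where Vpreb1, Dntt and Rag2 rose, and a link between these changes was not tested.

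Some early lymphoid surface markers differed between the lineages and others did not pass 2-fold. Kit and Cd34, receptors and markers of progenitors, were at 34.2 and 206 FPKM in B117H and at 29.9 and 200 FPKM in B117P. In B140H both were listed at 0, and in B140P Kit was listed at 0 and Cd34 was at 0.0432 FPKM. Il7r rose in B117H, to 4.75 FPKM against 0.917 FPKM in B117P, and was at 15.5 FPKM in B140H and 11.2 FPKM in B140P. Flt3, a receptor of early progenitors, was at 48.0 FPKM in B117H and 32.9 FPKM in B117P, and at 347 FPKM in B140H and 249 FPKM in B140P. Cd24a, a surface protein of pre-B and many other cells, fell in B117H to 30.1 FPKM, against 155 FPKM in B117P, and rose in B140H to 638 FPKM, against 192 FPKM in B140P. Among the 12 expressed members, 1 rose and 2 fell in B117H, and 1 rose and none fell in B140H. Over all expressed genes, 1.41% rose and 3.21% fell in B117H, and 2.31% rose and 1.63% fell in B140H. Their median was -0.15 in B117H and 0.30 in B140H, beside -0.03 and 0.11 over all expressed genes. Il2rg, Crlf2, Spn and Ptprc were within 2-fold between B117H and B140H and between B117P and B140P. These 4 genes, Kit, Cd34 and Flt3 were picked after their values were seen.

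The signalling partners of the pre-B receptor were present in both lineages. Of 20 listed genes 17 were expressed. In B117H Blnk rose, Sh3bp2 fell with a log2 ratio of -1.50 and 15 did not pass. In B140H 3 rose and none fell. Lcp2, an adaptor protein, rose to 8.21 FPKM in B140H, against 0.830 FPKM in B140P. Bcl10, a protein of NF-kB signalling, rose to 20.9 FPKM in B140H, against 8.61 FPKM in B140P. Syk, the kinase recruited by the CD79 chains, was at 6.46 FPKM in B117H and 12.0 FPKM in B117P, and at 20.1 FPKM in B140H and 18.3 FPKM in B140P. The list medians were -0.08 in B117H and 0.31 in B140H, beside -0.03 and 0.11 over all expressed genes. The shares of all expressed genes were 1.41% higher and 3.21% lower in B117H, and 2.31% higher and 1.63% lower in B140H. In B117H Bcl10 had a log2 ratio of 0.98, and of 1.05 under upper-quartile scaling. Bcl10 and Syk were picked after their values were seen.

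Of 16 expressed early lymphoid transcription factors, none rose and 2 fell in B117H, and 1 rose and 1 fell in B140H. Id2, an inhibitor of E proteins, fell in B117H to 9.44 FPKM, against 26.9 FPKM in B117P. Irf8, a factor of myeloid and B cell progenitors, fell in B117H, to 57.2 FPKM against 119 FPKM in B117P, and rose in B140H, to 200 FPKM against 88.5 FPKM in B140P. Under upper-quartile scaling neither Irf8 change passed 2-fold, with log2 ratios of -0.96 in B117H and 0.99 in B140H. Sox4 fell in B140H with a log2 ratio of -1.04. Tcf3, which encodes the E2A proteins, was at 32.9 FPKM in B117H and 33.7 FPKM in B117P, and at 45.4 FPKM in B140H and 39.8 FPKM in B140P. Tcf3 was picked after its values were seen. The list medians were 0.05 in B117H and -0.05 in B140H, beside -0.03 and 0.11 over all expressed genes. The shares of all expressed genes were 1.41% higher and 3.21% lower in B117H, and 2.31% higher and 1.63% lower in B140H.

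The end-joining factors that complete V(D)J recombination were mostly within 2-fold. Of 16 expressed genes, 1 rose and 1 fell in B117H and 1 fell in B140H. Xrcc5, the Ku80 subunit, rose in B117H with a log2 ratio of 1.40 and fell in B140H with a log2 ratio of -2.02. It was at 3.53 FPKM in B117H, against 0.717 FPKM in B117P, and at 2.50 FPKM in B140H, against 13.2 FPKM in B140P, the same directions as for Dntt. Poll, a polymerase of the same family as terminal transferase, fell in B117H to 7.60 FPKM, against 22.4 FPKM in B117P. Poll lies 4.51 Mb past Dntt, within the stretch where 20 of 29 expressed genes fell in B117H. The list medians were 0.13 in B117H and 0.07 in B140H, beside -0.03 and 0.11 over all expressed genes. The shares of all expressed genes were 1.41% higher and 3.21% lower in B117H, and 2.31% higher and 1.63% lower in B140H.

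Markers of other cells that use these genes were low or mixed. Thymocytes express Rag1, Rag2 and Dntt. Among the 17 T lineage genes Cd3e, Cd3g, Cd4 and Gata3 were listed at 0 in all 4 libraries, and others were expressed. Cd28 was at 9.19 FPKM in B117H and 39.0 FPKM in B117P, and at 34.0 FPKM in B140H and 15.0 FPKM in B140P. Cd247 was at 9.75 FPKM in B117H and 9.45 FPKM in B117P, and at 6.96 FPKM in B140H and 7.12 FPKM in B140P. The list summed to 34.8 FPKM in B117H and 55.3 FPKM in B117P, and to 47.1 FPKM in B140H and 26.1 FPKM in B140P. Of its 6 expressed members Cd6 and Lck rose and Cd28 fell in B117H, and Cd28 rose in B140H. The log2 ratios in B117H were 1.30 for Cd6, 1.28 for Lck and -1.97 for Cd28, and Cd28 was at 1.13 in B140H, or 0.96 under upper-quartile scaling. The T lineage genes at 0, Cd247 and Ms4a1 were picked after their values were seen. The median of the 6 was 0.36 in B117H and 0.00 in B140H, beside -0.03 and 0.11 over all expressed genes. The shares of all expressed genes were 1.41% higher and 3.21% lower in B117H, and 2.31% higher and 1.63% lower in B140H. None of the 6 expressed genes among 11 plasmacytoid dendritic cell genes passed the rule in either lineage, except that Cox6a2 reached a log2 ratio of 1.05 in B117H under upper-quartile scaling. Their median was 0.40 in B117H and 0.26 in B140H. Siglech, a defining receptor of those cells, was at 0.795 FPKM in B117H and 0.537 FPKM in B117P, and at 11.2 FPKM in B140H and 18.1 FPKM in B140P. Pacsin1 and Bst2 were also higher in both B140 lines, while Cox6a2 and Runx2 were lower there. Cox6a2 was at 62.7 FPKM in B117H and 31.4 FPKM in B117P, and at 1.10 FPKM in B140H and 0.577 FPKM in B140P. Runx2 was at 11.9 FPKM in B117H and 8.26 FPKM in B117P, and at 1.38 FPKM in B140H and 1.14 FPKM in B140P. These 5 genes were picked after their values were seen. The list summed to 135 FPKM in B117H and 111 FPKM in B117P, and to 134 FPKM in B140H and 120 FPKM in B140P.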

How the data were processed

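RNA of 4 cell lines was sequenced, 1 library each. The authors deposited FPKM values per gene, made with TopHat2 2.0.4 and Cuffdiff on mm9 per the submitters' processing notes. The annotation used is not given in the sources used here, and the analysis began at the FPKM values. Listed starts were read as counted from 0, since 6285 of 19357 symbols then had the span of the RefSeq table against 434 otherwise, and 1 was added.

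The 9 genes and all lists were chosen with earlier results of these data known. Every member is named, with up to 4 members of each list past 2-fold, Pax5 and Ebf1, the 3 genes with the closest profiles and the adjacent genes. Some genes that the rule names are not reported here, though list counts, medians and sums include them. Genes outside that rule are said to be picked afterwards. Symbols were matched through RefSeq synonyms where needed (Syk as Sykb, Spi1 as Sfpi1).

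Depth and the length taken off each transcript, 110 to 140 bases, were fitted to low FPKM values of up to 4.5 fragments in 1292 single-transcript genes over 800 bases. FPKM was turned into fragments with GENCODE lengths. Intervals are exact, Clopper-Pearson for ratios and Poisson for levels, at 95%, and cover counting error only. The steps were tested on simulated data. No test was run, as each line had 1 library. Alternatives were a 4-fold rule, a pseudocount of 0.1, dropping the filter or raising it to a mean of 5 FPKM, centring, upper-quartile scaling and leaving out genes listed at 0. Scripts ran under Python 3.11.15 with matplotlib 3.10.9, scipy 1.17.1, pandas 2.3.3 and numpy 2.4.6.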

Additional observations from a re-analysis of the deposited data

Results flagged for a closer look

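Vpreb1 and Dntt moved past 2-fold in opposite directions in the lineages. The log2 ratio of Vpreb1 was 3.14 in B117H against B117P and -1.88 in B140H against B140P. That of Dntt was 2.30 in B117H against B117P and -2.78 in B140H against B140P. Each lineage is 1 pair of libraries, and the difference between the lineages was not tested.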

How the results depend on the processing

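Over 8 of the 9 genes the 107 log2 ratios computed under the 7 alternatives kept their sign, 55 of them for ratios past 2-fold. Only centring and upper-quartile scaling could have changed a sign. The pseudocount cannot change it, and the other alternatives leave each ratio as it was, so little is read from this. Vpreb3 was not run, Vpreb2 and Rag1 had no value at a mean of 5 FPKM, and Vpreb2 had none in lineage B117 without genes listed at 0. A pseudocount of 0.1 raised the number of genes higher in B117H to 5 and lower to 2, against 3 and 0, since Igll1, Vpreb2, Cd79a and Cd79b, low in that lineage, then passed 2-fold. A 4-fold rule left 0 genes higher and 1 lower in B140H, against 1 and 4, and 5 of 8 past it between B117H and B140H. The other 37 of 42 counts stayed within 1.5 times. Centring moved the median of all genes by -0.11 in lineage B140 and made the split of calls 173 higher and 199 lower, against 233 and 164, and upper-quartile scaling moved it by -0.13, with 159 higher and 202 lower. Among listed genes, upper-quartile scaling ended the calls of Irf8 in both lineages and of Cd28 in B140H, and added Bcl10 and Cox6a2 as higher in B117H. Centring added Bcl10 and Cox6a2 as well. No paired analysis was possible because each comparison sets 1 library against 1 and comes from no test. A fit over both lineages with the lineage as the pair was not run. Depth limits the B117 values of Igll1, Vpreb2, Rag1 and Cd79a, which rest on 17 or fewer fragments in each line, and that of Cd79b in B117H, on about 12.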
